A study of Mus musculus with 12 samples.

Results

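The 10 genes described here have transcripts that differed, at 1 or more probe sets, between glomeruli of 2 inbred mouse strains: Ugt2b38, Akr1c21, Cyp2c23, Inmt and Galc, which were higher in C57BL6J, and Gdpd3, Rnase4, Ang, Abhd1 and Nnt, which were higher in 129S2SvPAs. They were chosen on the measured difference between the strains in these same arrays, so that difference is given as a description and carries no test. Its size varied: Nnt differed by ratios of 1.48 to 3.05 at its bright probe sets, and 1 of 3 Ang probe sets had the opposite sign. Every probe set that the platform annotation assigns to exactly 1 of these symbols was taken, which gave 16 probe sets of 45037 on the array, for 10 of 18201 named genes. Of the genes 7 had 1 probe set, and Galc, Ang and Nnt had 3 each.

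The arrays measured RNA of isolated glomeruli, the filtering units of the kidney. All mice were female, aged 8 to 10 weeks and obtained from Charles River, and no transgene or engineered allele is given for any of them. The 4 groups of 3 mice were C57BL6J controls, C57BL6J mice with anti-GBM GN, 129S2SvPAs controls and 129S2SvPAs mice with anti-GBM GN, each mouse on 1 Affymetrix array. Anti-GBM GN is a glomerulonephritis in which an injected nephrotoxic serum carries antibodies that bind the glomerular basement membrane. Serum was given on days 0, 1 and 2, the tissue was taken on day 4, and the glomeruli were collected on nylon sieves of 100 and 45 µm. The labels do not say what the control mice received. A value is the log2 signal of a probe set, so a difference of 1 is a doubling, and the median of the whole table, 3.03, lies at the low end of this range, where many signals cluster. The number of arrays limits the precision, and a signal also depends on how well a strain's transcript matches the probes, whose sequences were not used here.

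Several of the 10 genes are known from the kidney tubule and the liver. Ugt2b38 encodes a UDP-glucuronosyltransferase, one of the enzymes that couple glucuronic acid to steroids and foreign compounds. Akr1c21 encodes an aldo-keto reductase that acts on hydroxysteroids, and Cyp2c23, also called Cyp2c44, encodes a cytochrome P450 that makes epoxides of arachidonic acid. Inmt transfers methyl groups to indolethylamines. Galc is the lysosomal galactosylceramidase, the enzyme lacking in Krabbe disease, and Gdpd3 is a glycerophosphodiester phosphodiesterase that acts on lysophospholipids. Rnase4 and Ang (angiogenin) are secreted ribonucleases of the ribonuclease A superfamily that are transcribed from a shared locus. Abhd1 belongs to the α/β hydrolase domain genes and is annotated as a transcribed pseudogene in the RefSeq table of the C57BL/6J reference. Nnt, the mitochondrial nicotinamide nucleotide transhydrogenase, makes NADPH, and C57BL/6J mice are known to carry a deletion of several of its exons.

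Promoter windows of 300 bases, from 250 before to 50 after the start site, were taken from RefSeq (GRCm38.p6, the C57BL/6J reference) and matched 7 of the 10 genes. Rnase4 and Ang, which were both higher in 129S2SvPAs, have the same window, chr14:51090827-51091126 on the + strand, and it is shown for that reason, beside those of 3 genes that were higher in C57BL6J: Ugt2b38 at chr5:87424154-87424453 on the - strand, Akr1c21 at chr13:4573825-4574124 on the + strand and Inmt at chr6:55174941-55175240 on the - strand. Capitals mark matches, on either strand, to 3 motifs that were searched: TATAAA (the TATA box), GTTAAT (a part of the HNF1 site) and CAAAGTCCA (an HNF4 site).
Rnase4 and Ang: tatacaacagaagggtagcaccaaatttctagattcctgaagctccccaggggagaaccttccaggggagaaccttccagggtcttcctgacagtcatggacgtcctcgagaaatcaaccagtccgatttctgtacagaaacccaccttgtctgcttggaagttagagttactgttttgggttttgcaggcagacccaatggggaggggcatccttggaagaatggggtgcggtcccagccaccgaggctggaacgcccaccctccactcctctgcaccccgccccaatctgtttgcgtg
Ugt2b38: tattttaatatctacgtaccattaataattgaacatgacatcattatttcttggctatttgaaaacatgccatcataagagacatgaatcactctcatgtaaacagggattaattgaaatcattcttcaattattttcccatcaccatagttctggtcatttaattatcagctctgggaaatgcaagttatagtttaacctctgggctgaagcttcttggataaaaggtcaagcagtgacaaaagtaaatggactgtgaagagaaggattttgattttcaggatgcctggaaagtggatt
Akr1c21: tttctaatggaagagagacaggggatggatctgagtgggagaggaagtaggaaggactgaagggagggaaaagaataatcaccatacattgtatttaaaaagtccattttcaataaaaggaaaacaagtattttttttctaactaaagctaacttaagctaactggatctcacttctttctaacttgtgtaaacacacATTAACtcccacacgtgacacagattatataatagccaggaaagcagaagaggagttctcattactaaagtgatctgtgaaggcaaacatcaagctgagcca
Inmt: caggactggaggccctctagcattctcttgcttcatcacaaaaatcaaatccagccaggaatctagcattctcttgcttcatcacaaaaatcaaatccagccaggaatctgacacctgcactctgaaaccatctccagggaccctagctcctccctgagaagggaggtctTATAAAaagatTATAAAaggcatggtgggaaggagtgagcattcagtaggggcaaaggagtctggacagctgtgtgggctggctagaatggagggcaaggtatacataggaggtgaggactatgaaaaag
The Inmt window holds 2 matches to TATAAA, which 13.6% of the 32851 promoters in the table hold. The Akr1c21 window holds 1 match to GTTAAT, read on the other strand at position -52 from the start site, and 7.10% of promoters hold that motif. CAAAGTCCA, held by 0.475% of promoters, was not found in any of the 7 windows. The windows also differed in CG dinucleotides, of which the median promoter had 7: Inmt had 0, Ugt2b38 and Akr1c21 had 1 each, Gdpd3 had 7, the shared Rnase4 and Ang window 8 and Galc 14. A second Rnase4 start site, at chr14:51095750-51096049, had 2. These are descriptions of the reference sequence only.

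Arrays of a group correlated with r of 0.983 to 0.994 over 23394 probe sets, except that 129S2SvPAs anti-GBM GN replicate 1 had r of 0.974 with each of the other arrays of its group. Podocyte markers were present, with a log2 summed signal of 8 markers between 11.21 and 13.40 on all arrays, and so were proximal tubule markers, with 16.28 to 17.05 for 18 markers of 20 listed. The tubule sum was alike in the controls of the strains (16.81 to 17.04 in C57BL6J and 16.81 to 17.05 in 129S2SvPAs), whereas it was 16.57 to 16.87 in C57BL6J and 16.28 to 16.52 in 129S2SvPAs mice with anti-GBM GN. Of 8 podocyte markers 6 were lower in 129S2SvPAs than in C57BL6J controls and none was higher, with a median log2 difference of -1.54. The medians were -1.17 for 8 endothelial markers (1 called lower), -0.39 for 6 mesangial and smooth muscle markers (2 called lower) and 0.35 for 10 markers of later nephron segments, from the loop onwards (2 called higher). In RNA of whole preparations, fewer cells of a type and less RNA per cell cannot be told apart.

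The strains stood apart on all 12 arrays, meaning that every array of one strain exceeded every array of the other, at 10 of the 16 probe sets, and each of the 10 genes had at least 1 such probe set. Of these, 5 were higher in C57BL6J and 5 in 129S2SvPAs. Over the whole array 17.4% of probe sets stood apart in this way, and since the strain difference chose the genes, nothing is read from the count. Within the controls 13 of the 16 probe sets stood apart in either direction (51.4% of all probe sets), and within anti-GBM GN 13 did (32.2%). The gap is the lowest array of the higher strain minus the highest array of the lower strain. It was at least 3 on the log2 scale at 6 of the 16, and at 17 probe sets (0.0377%) on the whole array. The choice of genes fixes this too, so it describes them and supports nothing. Ugt2b38, Gdpd3 and Galc ranked 1, 2 and 3 by gap among 34957 probe sets with 1 symbol, Akr1c21 ranked 5, Abhd1 6 and Rnase4 8, and Inmt, Ang and Cyp2c23 followed at 28, 32 and 35, while the best Nnt probe set ranked 338.

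**Figure D1:**
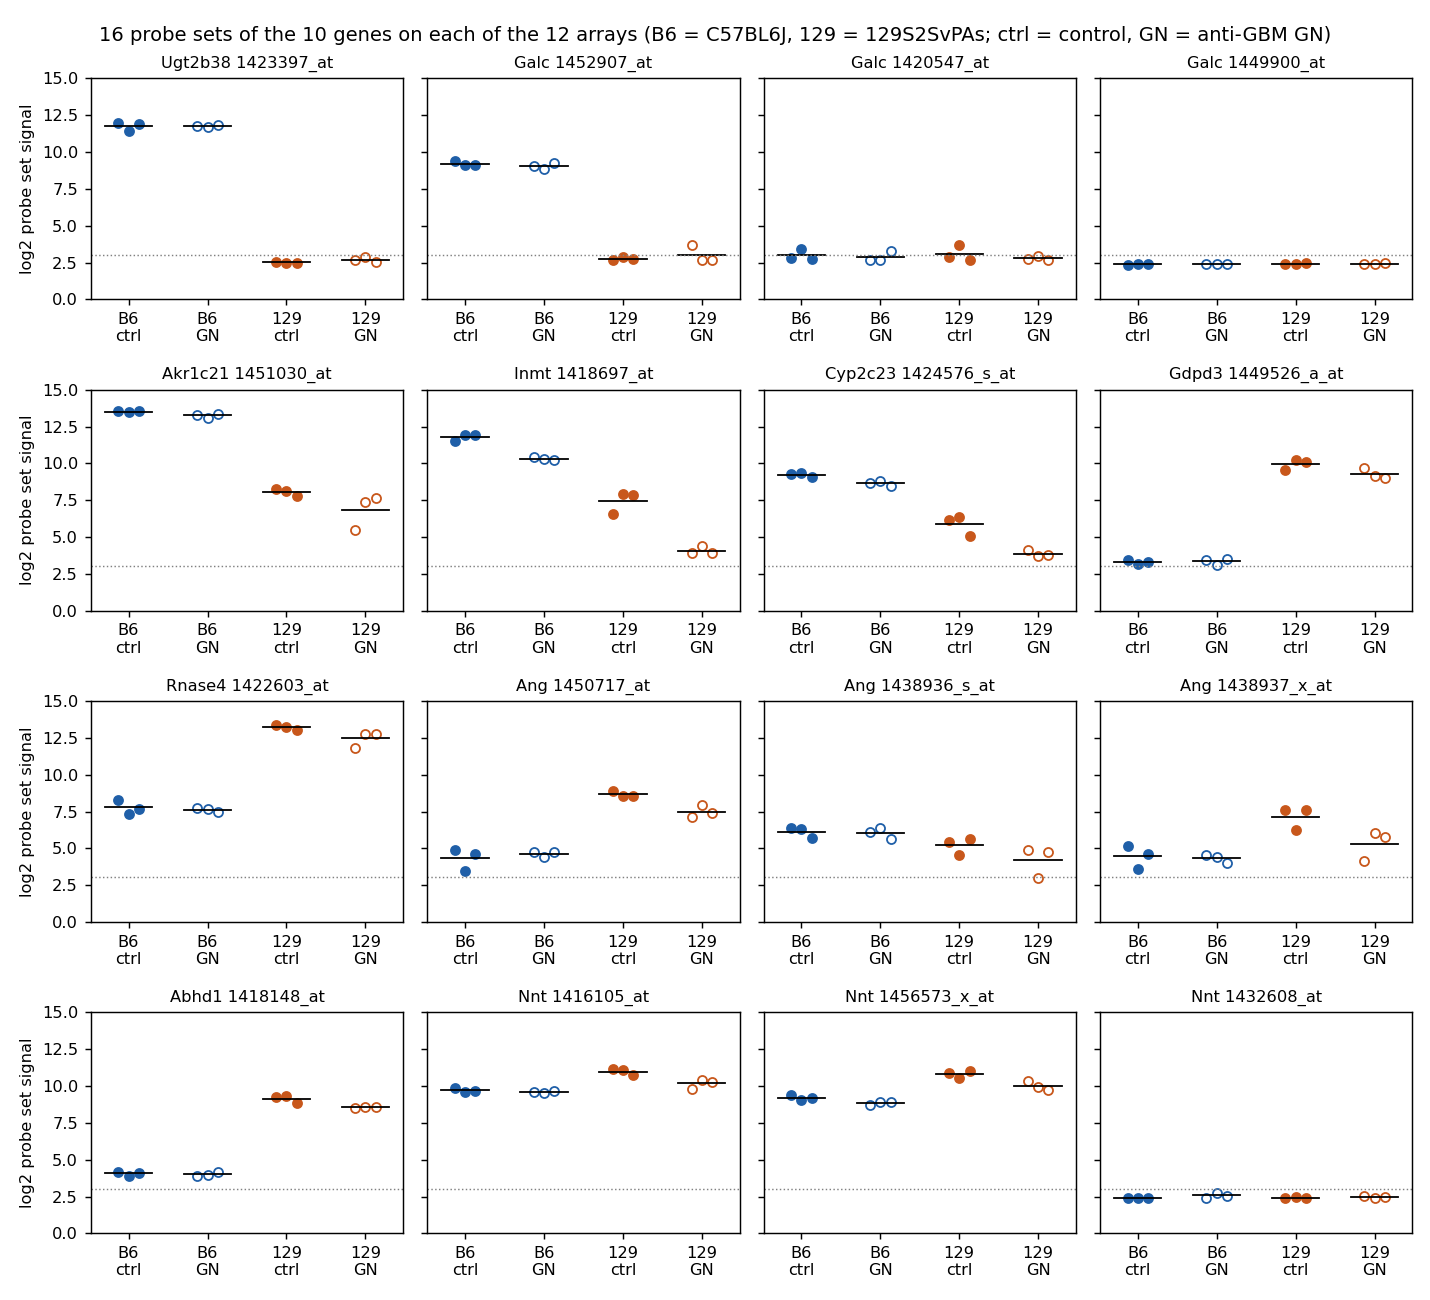
Log2 signal (vertical axis) of the 16 probe sets on each array, grouped on the horizontal axis by strain and treatment; points are mice, bars are group means of 3, and the dotted line is the median of the whole table, 3.03. Ugt2b38 lies above 11 in C57BL6J and under 3 in 129S2SvPAs, whereas both strains lie between 8.73 and 11.15 at Nnt 1416105_at and 1456573_x_at.

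Ugt2b38 (probe set 1423397_at) showed the widest gap, 8.58. Its signal was 11.97, 11.45 and 11.91 in C57BL6J controls and 11.75, 11.68 and 11.83 in C57BL6J mice with anti-GBM GN. In 129S2SvPAs it was 2.57, 2.48 and 2.49 in controls and 2.65, 2.87 and 2.51 with anti-GBM GN, under the table's median on all 6 arrays. The means in controls were 11.78 ± 0.28 and 2.51 ± 0.05 (SD, n = 3 each). With 129S2SvPAs arrays under the table's median set to it, the C57BL6J mean was at least 430-fold higher in controls and at least 423-fold higher with anti-GBM GN.

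Akr1c21 (1451030_at) was among the brightest of the set in C57BL6J, at 13.55, 13.46 and 13.56 in controls and 13.32, 13.08 and 13.37 with anti-GBM GN. In 129S2SvPAs the transcript was lower but well above the table's median, at 8.28, 8.16 and 7.79 in controls and 5.46, 7.36 and 7.63 with anti-GBM GN. The C57BL6J mean was 43.6-fold higher in controls and 86.8-fold higher with anti-GBM GN, and the strains were 4.80 apart. The lowest value was that of 129S2SvPAs anti-GBM GN replicate 1, the array that correlated least with its group.

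Cyp2c23 (1424576_s_at, a probe set type that can match several transcripts) stood at 9.27, 9.35 and 9.08 in C57BL6J controls and 8.68, 8.84 and 8.50 in C57BL6J mice with anti-GBM GN. In 129S2SvPAs controls it was 6.16, 6.39 and 5.10, and with anti-GBM GN it was 4.15, 3.72 and 3.75. The C57BL6J mean was 10.2-fold that of 129S2SvPAs in controls and 27.9-fold with anti-GBM GN, with a gap of 2.11 over all arrays. Each group of 129S2SvPAs mice lay below every C57BL6J mouse, and the 129S2SvPAs groups did not overlap each other.

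Inmt (1418697_at) had signals of 11.53, 11.91 and 11.92 in C57BL6J controls and 10.41, 10.30 and 10.21 with anti-GBM GN. The 129S2SvPAs values were 6.56, 7.91 and 7.84 in controls and 3.91, 4.38 and 3.95 with anti-GBM GN. None of the 4 groups overlapped another. The ratio of C57BL6J to 129S2SvPAs was 20.4 in controls and 74.9 with anti-GBM GN.

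Galc is the first of the 3 genes for which the probe sets gave different pictures. Probe set 1452907_at was 9.39, 9.14 and 9.13 in C57BL6J controls, 9.06, 8.85 and 9.29 in C57BL6J anti-GBM GN, 2.68, 2.85 and 2.73 in 129S2SvPAs controls and 3.66, 2.66 and 2.68 in 129S2SvPAs anti-GBM GN, a gap of 5.19. With low arrays again set to the table's median, the C57BL6J mean was at least 73.0-fold higher in controls and at least 56.8-fold higher with anti-GBM GN. The other Galc probe sets carried no such difference: 1420547_at ranged from 2.66 to 3.69 over all 12 arrays and 1449900_at from 2.35 to 2.45. In each strain 1420547_at lay near the table's median and 1449900_at lay below it on every array. Their strain differences were 0.10 and 0.04 in controls. The Galc difference therefore rests on a single probe set, and the other probe sets gave no level in either strain with which to compare it.

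Gdpd3 (1449526_a_at) was the mirror image of Ugt2b38. It was 9.53, 10.25 and 10.10 in 129S2SvPAs controls and 9.66, 9.17 and 8.99 in 129S2SvPAs anti-GBM GN. In C57BL6J it was 3.46, 3.19 and 3.29 in controls and 3.46, 3.09 and 3.48 with anti-GBM GN, near the table's median on every array. The ratio of 129S2SvPAs to C57BL6J was 100 in controls and 61.0 with anti-GBM GN, with a gap of 5.51. These ratios are to a signal at the low end of the range and have no exact size.

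Rnase4 (1422603_at) was abundant in 129S2SvPAs, at 13.35, 13.24 and 13.06 in controls and 11.83, 12.80 and 12.79 with anti-GBM GN. C57BL6J glomeruli had 8.31, 7.37 and 7.70 in controls and 7.73, 7.70 and 7.47 with anti-GBM GN, a lower signal but one clear of the table's median. The ratio was 42.9 in controls and 28.6 with anti-GBM GN, and the gap was 3.52.

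Ang, its neighbour with the same promoter window, had 3 probe sets that did not tell one story. Probe set 1450717_at followed Rnase4, with 8.87, 8.55 and 8.59 in 129S2SvPAs controls, 7.10, 7.94 and 7.43 in 129S2SvPAs anti-GBM GN, 4.86, 3.47 and 4.62 in C57BL6J controls and 4.77, 4.43 and 4.75 in C57BL6J anti-GBM GN. Its ratio was 20.4 in controls and 7.16 with anti-GBM GN, and the gap was 2.24. Probe set 1438937_x_at, of a type that may bind other transcripts, was also higher in 129S2SvPAs controls (7.58, 6.23 and 7.60) than in C57BL6J controls (5.18, 3.62 and 4.65). With anti-GBM GN its values overlapped, at 4.17, 6.05 and 5.77 in 129S2SvPAs and 4.53, 4.43 and 4.04 in C57BL6J.

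Probe set 1438936_s_at of Ang went the other way. Its signal was 6.37, 6.32 and 5.68 in C57BL6J controls and 6.14, 6.40 and 5.65 in C57BL6J anti-GBM GN, against 5.44, 4.55 and 5.65 in 129S2SvPAs controls and 4.88, 2.96 and 4.76 in 129S2SvPAs anti-GBM GN. The C57BL6J means were 1.88-fold and 3.64-fold higher, and at the closest point the strains touched, with 5.65 in 1 mouse of each. Thus of the 3 probe sets annotated to Ang, 1 held the strain difference in both controls and anti-GBM GN, 1 held it in controls only, and 1 had the opposite sign.

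Abhd1 (1418148_at) was 9.25, 9.32 and 8.87 in 129S2SvPAs controls and 8.50, 8.59 and 8.59 in 129S2SvPAs anti-GBM GN. In C57BL6J it was 4.19, 3.91 and 4.13 in controls and 3.91, 3.96 and 4.17 with anti-GBM GN. The 129S2SvPAs mean was 33.6-fold higher in controls and 23.4-fold higher with anti-GBM GN, with a gap of 4.31.

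Nnt differed least. Probe set 1456573_x_at was 10.91, 10.53 and 11.03 in 129S2SvPAs controls, 10.34, 9.91 and 9.77 in 129S2SvPAs anti-GBM GN, 9.37, 9.07 and 9.21 in C57BL6J controls and 8.73, 8.93 and 8.89 in C57BL6J anti-GBM GN, so the strains stood apart by 0.40. The ratio was 3.05 in controls and 2.23 with anti-GBM GN. Probe set 1416105_at had the same direction, at 11.15, 11.09 and 10.73 against 9.90, 9.59 and 9.68 in controls and 9.80, 10.44 and 10.31 against 9.62, 9.53 and 9.69 with anti-GBM GN. The strains were apart within each condition there, by ratios of 2.41 and 1.48, but not over all 12 arrays, since 9.80 in 129S2SvPAs anti-GBM GN replicate 1 lay under 9.90 in a C57BL6J control. The remaining probe set, 1432608_at, lay between 2.40 and 2.75 on all arrays and gave no level in either strain.

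The description near on-off thus fitted the genes unequally. The lower strain lay near the table's median on every array for Ugt2b38 (2.48 to 2.87), Galc 1452907_at (2.66 to 3.66) and Gdpd3 (3.09 to 3.48), and a little above it for Abhd1 (3.91 to 4.19). Akr1c21, Rnase4 and, in the controls, Inmt and Cyp2c23 were detected in both strains and differed in level. Nnt was bright in both, with every array of the lower strain at 8.73 or more.

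**Figure D2:**
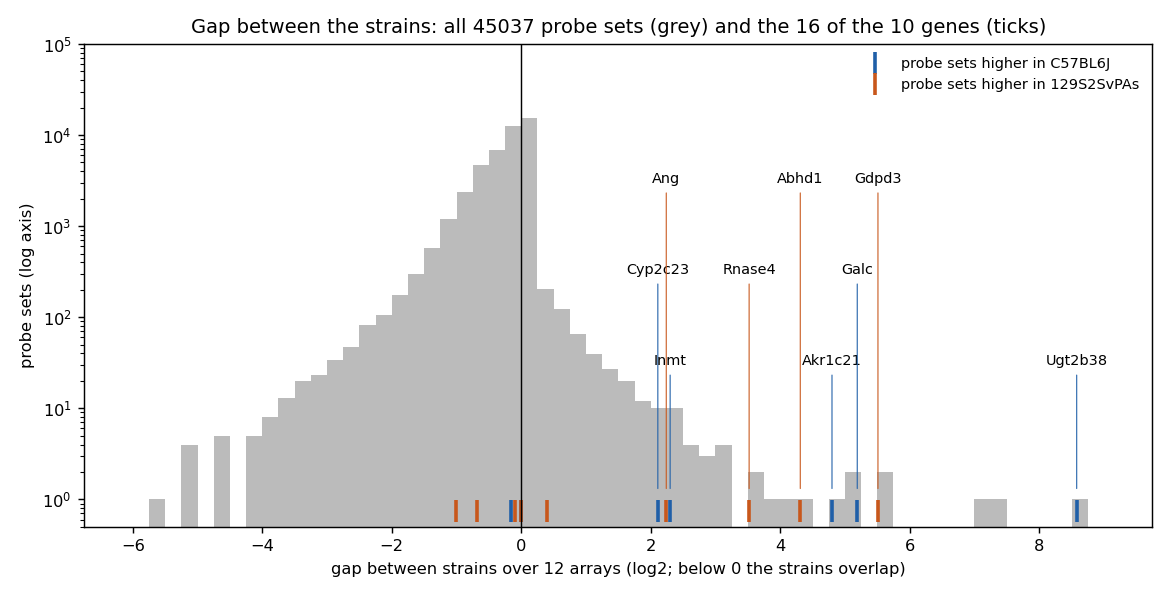
Number of probe sets (log axis) by the gap between the strains over 12 arrays (log2, bins of 0.25; values below 0 mean that the strains overlap) for all 45037 probe sets, with coloured ticks for the 16 probe sets of the 10 genes. Ugt2b38 has the widest gap among all named probe sets, 9 of the 16 ticks lie at 1 or higher, and the 1 other tick of strains that stand apart is that of Nnt 1456573_x_at at 0.40.

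The probe sets outside the 10 genes with gaps most like theirs were taken as the 5 widest in each direction over the 12 arrays among probe sets with 1 gene symbol, and they are given with no test. Higher in C57BL6J were Ankrd33b 1453287_at (gap 5.08), Trim34a (3.84), Tmem267 (3.50), Pttg1 1424105_a_at (3.19) and Rps9 1434624_x_at (3.11). Higher in 129S2SvPAs were Xaf1 1443621_at (2.92), Tmem87a (2.35), Atp10d (2.35), Abcb1b (2.33) and Wdfy1 1424749_at (2.27). As with Galc and Ang, some of these genes had a further probe set without the difference. Ankrd33b 1453782_at was 7.25 to 7.86 in C57BL6J and 7.34 to 8.04 in 129S2SvPAs. Rps9, a ribosomal protein gene, had 11.63 to 12.18 and 11.85 to 12.18 at 1433689_s_at. At Xaf1 the second probe set, 1443698_at, was higher in C57BL6J with a gap of 1.90, the reverse of the first. Pttg1 and Wdfy1, by contrast, kept the direction at other probe sets, with gaps of 2.72 at Pttg1 1438390_s_at and 2.00 and 1.49 at Wdfy1 1437358_at and 1435588_at.

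The next comparison was how the 10 genes responded to anti-GBM GN within each strain. The rule that chose the genes did not use this response. It did use the same arrays, so the comparison is not independent of the choice. In C57BL6J, Inmt fell by 1.48 (log2, SE 0.31, adjusted p = 0.0221 in limma). It was the only call among the 14 probe sets tested, and none was called higher. In all, 4.86% of 23394 probe sets were called in this comparison and 1.55% were called lower, and the 14 had a median change of -0.13 against -0.03 for all tested. The next largest falls, of Cyp2c23 (-0.56, adjusted p = 0.331), Nnt 1456573_x_at (-0.37, adjusted p = 0.292) and Akr1c21 (-0.27, adjusted p = 0.847), did not pass the test. The Inmt call was lost when any 1 C57BL6J array other than control replicate 1 was left out (adjusted p of 0.055 to 0.0856), and over all 20 alternatives its adjusted p ranged from 0.000972 to 0.192. The 2 probe sets not tested were Galc 1449900_at and Nnt 1432608_at, which did not exceed the table's median on 3 arrays. Gdpd3 (3.09 to 3.48), Abhd1 (3.91 to 4.19) and Ang 1450717_at (3.47 to 4.86) lay low in C57BL6J. There was little room to see a fall of these.

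In 129S2SvPAs, 6 of the 14 probe sets, of 5 genes, were lower with anti-GBM GN and none was higher, where 16.0% of all probe sets were called and 7.60% were called lower. The 14 had a median change of -0.82, against 0.00 for all tested. Inmt fell by 3.36 (SE 0.31, adjusted p = 0.000103 in limma) and Cyp2c23 by 2.01 (SE 0.28, adjusted p = 0.00108), the former from 7.44 ± 0.76 to 4.08 ± 0.26 and the latter from 5.88 ± 0.69 to 3.87 ± 0.24 (SD, n = 3 each). Both were already lower in 129S2SvPAs than in C57BL6J controls. Ang 1450717_at fell by 1.18 (SE 0.33, adjusted p = 0.0344), Abhd1 by 0.59 (SE 0.14, adjusted p = 0.0147), and Nnt by 0.81 at 1416105_at and 0.82 at 1456573_x_at (adjusted p of 0.011 and 0.00948). Nnt was thus lower by a similar amount at both of its bright probe sets.

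The other 129S2SvPAs probe sets did not pass the test. Gdpd3 changed by -0.69 (adjusted p = 0.0591 in limma; 0.0191 without 129S2SvPAs anti-GBM GN replicate 1, 0.0204 without control replicate 1) and Rnase4 by -0.74 (adjusted p = 0.108). Akr1c21 changed by -1.26 (adjusted p = 0.0848), and without 129S2SvPAs anti-GBM GN replicate 1 by -0.58 (adjusted p = 0.0332), or without replicate 3 by -1.67 (adjusted p = 0.0346), with a range of 0.0332 to 0.988 over its alternatives. Ang 1438937_x_at changed by -1.81 (adjusted p = 0.0511, and 0.0237 to 0.708 over its alternatives) and Ang 1438936_s_at by -1.01 (adjusted p = 0.203). Ugt2b38 and Galc, which lay at the low end in 129S2SvPAs, had changes of 0.16 and 0.25 with no call, and at that level a fall could not have been seen.

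**Figure D3:**
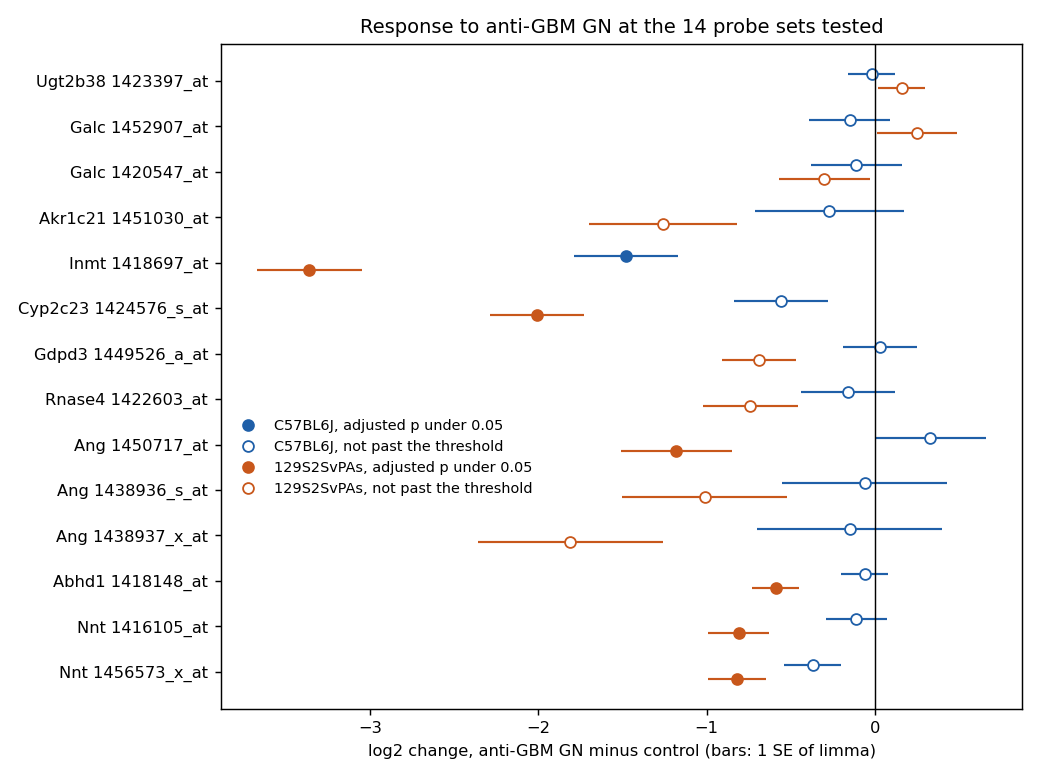
Log2 change from control to anti-GBM GN (horizontal axis) at the 14 probe sets tested, in each strain, with bars of 1 SE from limma; filled points passed an adjusted p of 0.05. In 129S2SvPAs the 6 filled points lie between -3.36 and -0.59, and in C57BL6J the only filled point is Inmt at -1.48.

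The proximal tubule markers moved with these changes: 6 of 17 tested were lower in 129S2SvPAs with anti-GBM GN and none was higher (median -0.73), whereas 1 of 17 was lower in C57BL6J (median -0.14). With the mean of these markers as a covariate none of the 14 probe sets passed in either strain. Of all probe sets 1.76% did in C57BL6J and 0.244% in 129S2SvPAs. Inmt then changed by -2.88 (adjusted p = 0.151 in limma) and Cyp2c23 by -2.16 (adjusted p = 0.246) in 129S2SvPAs, sizes near those without the covariate. Ang 1450717_at (-0.52), Abhd1 (-0.17) and Nnt 1416105_at (-0.37) were smaller, and Nnt 1456573_x_at was -1.15. Whether tubule content accounts for the changes was not tested. Fitting only the 129S2SvPAs groups left 3 of the 6 calls, where 7.96% of all probe sets were called. The Ang 1450717_at call was lost without any 1 129S2SvPAs array other than anti-GBM GN replicate 2 (adjusted p of 0.0637 to 0.107). The Abhd1 call was lost without 129S2SvPAs control replicate 1 or 2 (adjusted p of 0.0538 and 0.0517).

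The responses of the strains were then compared with each other, which asks whether the strain difference itself changed with nephritis. The strain differences on which the genes were chosen enter this comparison. None of the 14 probe sets passed in limma, where 0.427% of all probe sets did, although 6 had an unadjusted p under 0.05, as did 2325 of all 23394. The median difference (129S2SvPAs response minus C57BL6J response) was -0.71, against 0.03 for all tested. In C57BL6J, Gdpd3 (3.09 to 3.48), Abhd1 (3.91 to 4.19) and Ang 1450717_at (3.47 to 4.86) left little room for a fall. This limits their differences of -0.72, -0.52 and -1.51. Ugt2b38 and Galc 1452907_at had that limit in 129S2SvPAs, with 0.19 and 0.40. Inmt had -1.88 (SE 0.44, adjusted p = 0.141), Cyp2c23 -1.45 (SE 0.40, adjusted p = 0.216) and Ang 1450717_at -1.51 (SE 0.46, adjusted p = 0.275). It was therefore not shown that these transcripts fell more in 129S2SvPAs than in C57BL6J. Inmt passed without 129S2SvPAs control replicate 1 (-2.32, adjusted p = 0.00669, range over alternatives 0.00669 to 0.616), and Cyp2c23 without 129S2SvPAs control replicate 3 (-1.84, adjusted p = 0.0196, range 0.0192 to 0.599).

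Other genes of the same families and pathways were then set beside the 10 genes, to show whether strain differences ran through the families. Of 168 listed genes 132 were on the array and 101 were tested. In controls 13 of the 101 were called, 11 higher and 2 lower in 129S2SvPAs, a share of 12.9% against 8.03% of 11921 genes. With anti-GBM GN 13 were called, 5 higher and 8 lower, again 12.9% against 7.75%. Their median differences were 0.09 and 0.04, against 0.00 and 0.03 for all genes tested. With the tubule covariate 11 were called in controls, where 6.33% of all probe sets were, and 4 with anti-GBM GN, where 2.36% were. With anti-GBM GN the marker mean did not overlap between the strains (-0.23 to 0.13 in C57BL6J, -0.53 to -0.26 in 129S2SvPAs). There the covariate cannot be told apart from strain. With no filter on low signals 7 were called in controls, where 2.68% of all probe sets were. None of the 101 differed by as much as Ugt2b38, Galc or Akr1c21 did, and the largest called difference was 2.83. Those genes were chosen for their strain differences, so nothing is read from this.

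Among 5 UDP-glucuronosyltransferase pathway genes tested none was called in either condition, with medians of 0.18 in controls and -0.20 with anti-GBM GN. They included Ugt2b37 (0.04 in controls) and Ugt2b34 (0.18), which belong to the Ugt2b family of Ugt2b38. Of 12 aldo-keto reductases 2 were called in controls and 2 with anti-GBM GN. Akr1c19 was lower in 129S2SvPAs, as Akr1c21 was, with -1.22 in controls (SE 0.15, adjusted p = 0.000868 in limma) and -1.01 with anti-GBM GN (adjusted p = 0.00278). Akr1c20 was higher by 1.63 in controls (adjusted p = 0.0417, and 0.0624 with the replicate number as a block). Akr1c18, which inactivates progesterone, was 4.76, 4.36 and 4.03 in C57BL6J anti-GBM GN and 2.02, 2.77 and 2.81 in 129S2SvPAs anti-GBM GN. All 129S2SvPAs arrays lay under the table's median, so it passed the filter only through C57BL6J and its call (adjusted p = 0.0229) is no support. These Akr1c genes are similar in sequence, so probe sets may read more than 1 of them.

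The list of arachidonic acid metabolism had 10 tested genes, which were cytochromes P450 and the epoxide hydrolases Ephx1 and Ephx2. Of these, Cyp2j6 (0.67, adjusted p = 0.0374 in limma) and Cyp2j9 (0.78, adjusted p = 0.0378) were higher in 129S2SvPAs controls. Cyp2j6 had an adjusted p of 0.054 under the replicate block. Cyp2j11 was lower with anti-GBM GN (-0.68, adjusted p = 0.00988). The small molecule methyltransferases and their partners had the most calls: 6 of 9 were higher in 129S2SvPAs controls, opposite in sign to Inmt, with a median of 0.94. Bhmt, which remethylates homocysteine with betaine, was 12.03, 10.82 and 10.13 in 129S2SvPAs controls against 8.03, 8.56 and 7.90 in C57BL6J controls (2.83, SE 0.47, adjusted p = 0.00459). Gnmt, which methylates glycine, was 9.58, 9.63 and 9.52 against 7.96, 8.39 and 7.67 (1.57, SE 0.19, adjusted p = 0.000701). The groups did not overlap for either gene. Ahcy, which hydrolyses the S-adenosylhomocysteine left by methyl transfer, was higher by 1.25 (adjusted p = 0.00756), and Bhmt2 by 0.74 (adjusted p = 0.0149). The other calls were Gamt (adjusted p = 0.0324) and Tpmt (adjusted p = 0.0303, and 0.0548 with the replicate block), kept in 7 and 8 of the 12 fits that left out 1 array. The probe sets of Tpmt disagreed in sign. With anti-GBM GN 1 of the 9 was called, Gnmt (1.24, adjusted p = 0.00303), and the list's median was 0.13. In the same controls 2 of 17 proximal tubule markers were higher and 1 was lower in 129S2SvPAs (median -0.04), and with anti-GBM GN none was higher and 3 were lower (median -0.28), and the part of tubule RNA in these counts was not tested.

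Of 19 galactosylceramide and lysosomal sphingolipid genes, 2 were called in controls and 4 with anti-GBM GN. Glb1, the lysosomal β-galactosidase, was lower in 129S2SvPAs in both, as Galc was. It was 6.34, 6.55 and 6.56 in 129S2SvPAs controls against 8.23, 8.25 and 8.50 in C57BL6J controls (-1.84, adjusted p = 9.33e-05 in limma), and 5.93, 6.13 and 5.92 against 7.79, 7.57 and 8.25 with anti-GBM GN (-1.88, adjusted p = 9.41e-05), a gap of 1.01 over all arrays. Ugt8a, which makes galactosylceramide, the substrate of Galc, was higher in 129S2SvPAs by 1.28 in controls (adjusted p = 0.0402) and 1.81 with anti-GBM GN (adjusted p = 0.00746). Its C57BL6J signal of 3.17 to 3.81 lay near the table's median. A further Ugt8a probe set, 1419064_a_at, gave no level, at 2.3 to 2.33 in C57BL6J and 2.33 to 2.37 in 129S2SvPAs. Asah2, a ceramidase, was lower with anti-GBM GN (-1.21, adjusted p = 0.000128) and was not called in controls. Sphk1, a sphingosine kinase, was 4.29, 4.23 and 5.02 in 129S2SvPAs anti-GBM GN and 2.64 to 3.07 on the other arrays. It passed the filter on low signals only through that group, so its call there (adjusted p = 0.000295) is no support.

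The lists around Gdpd3, Rnase4 and Ang, Abhd1 and Nnt held few calls. Of 13 glycerophosphodiesterase and N-acylethanolamine genes Gdpd5 (-0.97, adjusted p = 0.00528 in limma) and Gpcpd1 (-1.02, adjusted p = 0.0208) were lower in 129S2SvPAs with anti-GBM GN and none was called in controls. Of 9 other ribonuclease A genes and partners on the array 1 passed the filter, the ribonuclease inhibitor Rnh1 (0.39 with anti-GBM GN, adjusted p = 0.0216). Of 18 α/β hydrolase domain genes Abhd14b alone was called, with anti-GBM GN (-1.31, adjusted p = 0.00175). Of 16 genes of mitochondrial NADPH supply and use Me3, the mitochondrial NADP-dependent malic enzyme, alone was called. It was higher in 129S2SvPAs, as Nnt was, by 1.03 in controls (adjusted p = 0.00154) and 0.56 with anti-GBM GN (adjusted p = 0.0409). Over the 12 fits that each left out 1 array, the calls in controls were kept in 4 for Akr1c20, 3 each for Cyp2j6 and Cyp2j9, 10 for Bhmt2 and 2 for Ugt8a, and those with anti-GBM GN in 9 for Akr1c18, 11 for Gpcpd1, 8 for Rnh1 and 3 for Me3, while apart from Gamt and Tpmt the other related genes named were called in all 12.

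**Figure D4:**
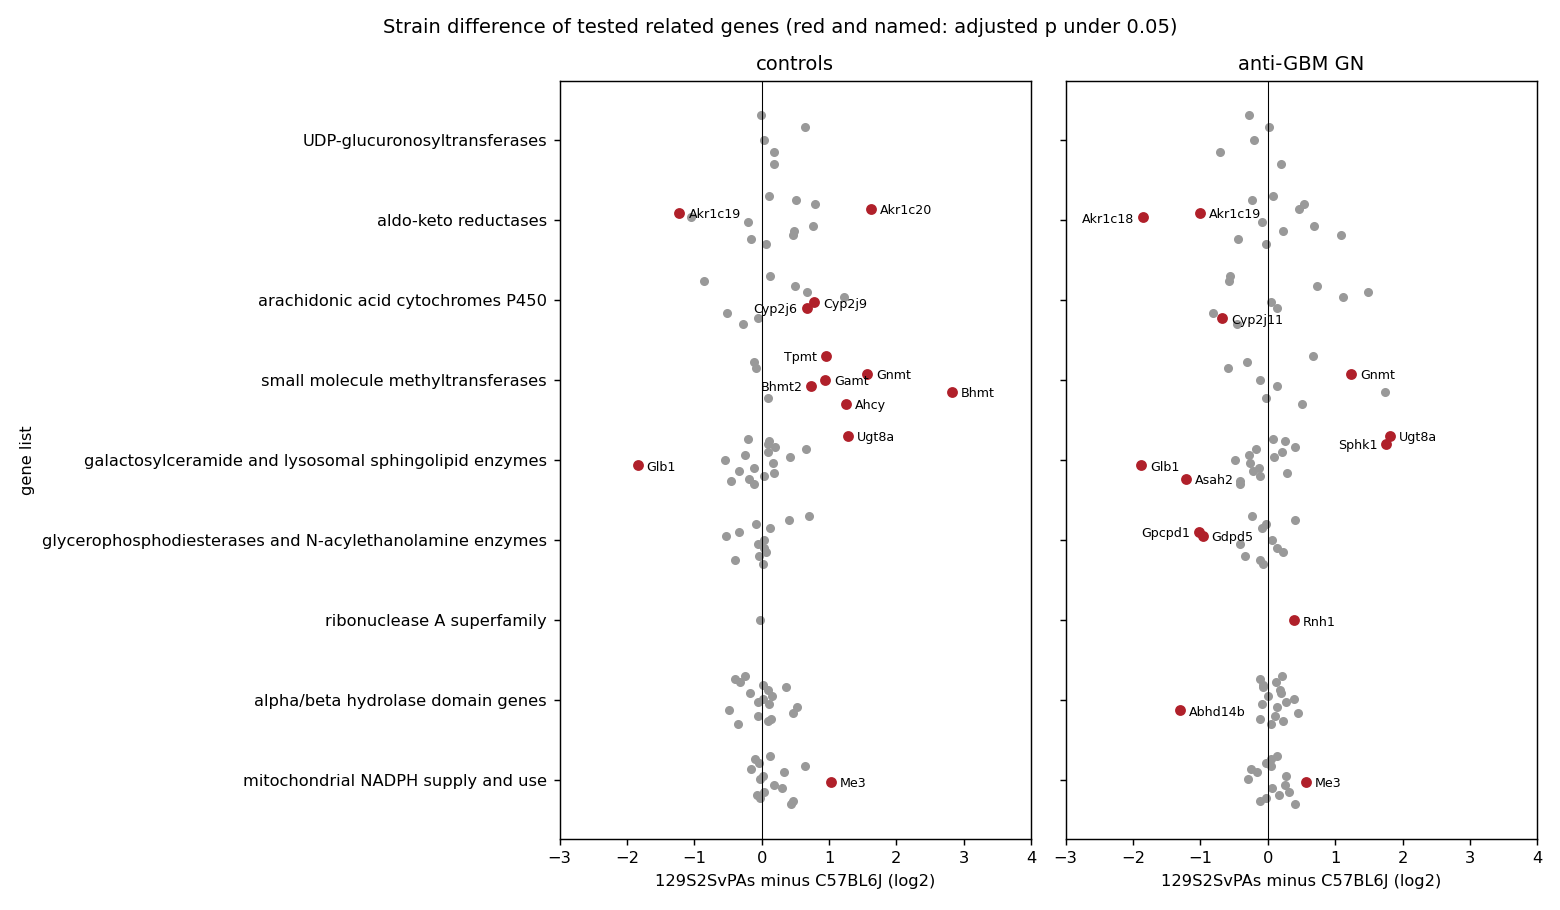
Log2 difference 129S2SvPAs minus C57BL6J (horizontal axis) of the 101 tested related genes in 9 lists, in controls (left) and with anti-GBM GN (right); red points with names passed an adjusted p of 0.05 in limma. In controls 6 of the 9 methyltransferase genes are red and lie between 0.74 and 2.83, and in both panels Glb1 is red below -1.80.

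Last, the genes lying next to the 10 genes on their chromosomes were examined, to show whether the strain difference extended to them. The nearest 5 genes on each side with a probe set were taken in the order of the RefSeq gene table (GRCm38.p6), with the other genes of the set left out, which gave 90 neighbours, 62 of them tested. Rnase4 and Ang share theirs. In controls 11 were called, 3 higher and 8 lower in 129S2SvPAs, a share of 17.7% against 8.03% of all genes, and with anti-GBM GN 12 were called, 4 higher and 8 lower, or 19.4% against 7.75%. The medians were -0.02 and 0.00. With the tubule covariate 11 were called in controls, where 6.33% of all probe sets were called, against 7.29% without it. With anti-GBM GN 6 were, where 2.36% of all probe sets were called, against 6.79% without the covariate.

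Tmem267 and Cpn1 had the largest differences among the 62 tested neighbours in both conditions. Tmem267, the fourth gene after Nnt, was 7.27, 7.03 and 7.18 in C57BL6J controls and 7.63, 7.81 and 7.60 in C57BL6J anti-GBM GN, against 3.28, 3.30 and 3.33 and 3.28, 3.53 and 3.38 in 129S2SvPAs. The difference was -3.86 in controls (SE 0.10, adjusted p = 1.14e-08 in limma) and -4.28 with anti-GBM GN (adjusted p = 4.83e-09), opposite in sign to that of Nnt. The 129S2SvPAs signal of Tmem267 lay near the table's median, so the difference has no exact size. Cpn1, a carboxypeptidase N subunit that directly precedes Cyp2c23, was 10.26, 10.22 and 10.40 in C57BL6J controls and 9.77, 9.86 and 10.10 in C57BL6J anti-GBM GN, against 7.14, 6.66 and 6.88 and 6.62, 6.27 and 6.45 in 129S2SvPAs. It differed by -3.40 in controls (SE 0.15, adjusted p = 4.27e-07) and -3.46 with anti-GBM GN (adjusted p = 4.87e-07), in the same direction as Cyp2c23. No array of one strain reached those of the other for either gene.

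Around Cyp2c23, Erlin1 on its other side (-1.45 in controls, adjusted p = 0.000129 in limma; -1.07 with anti-GBM GN) and Abcc2, a drug and conjugate exporter and the third gene before it (-1.09, adjusted p = 0.00937; -1.16 with anti-GBM GN), were also lower in 129S2SvPAs. In all 3 of 8 tested neighbours of Cyp2c23 were called lower in controls and the same 3 with anti-GBM GN, where 1 other was higher. Around Nnt, 4833420G17Rik, the second gene after it, differed by -1.67 in controls (adjusted p = 0.000522) and -1.95 with anti-GBM GN (adjusted p = 0.000203). Near Akr1c21 lay Akr1c20 and Akr1c19, which are described above. Flrt2 near Galc (-1.66, adjusted p = 0.00102) and Ggct near Inmt (-1.43, adjusted p = 0.00419) were lower in 129S2SvPAs controls. With anti-GBM GN, Ggct differed by -0.88 (adjusted p = 0.0488) and Flrt2 by -0.13 (adjusted p = 0.774). Sult1d1 near Ugt2b38 was higher by 0.69 (adjusted p = 0.0314, and 0.0533 with the replicate block) and Ypel3 beside Gdpd3 by 0.92 (adjusted p = 0.0319) in controls, whereas with anti-GBM GN they differed by 0.09 and 0.14 (adjusted p of 0.792 and 0.77). Coro1a, on the other side of Gdpd3, differed by -0.82 in controls (adjusted p = 0.371) and -2.31 with anti-GBM GN (adjusted p = 0.015). None of the 10 tested neighbours of Abhd1 was called in either condition, and of the 4 tested around Rnase4 and Ang 1 was, with anti-GBM GN only: Apex1, a DNA repair endonuclease gene (0.87, adjusted p = 0.00152; 0.32 in controls, adjusted p = 0.15). Of the 12 fits without 1 array, 6 kept the call of Sult1d1 and 8 that of Ypel3 in controls. With anti-GBM GN 4 kept the call of Ggct and 10 that of Coro1a.

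**Figure D5:**
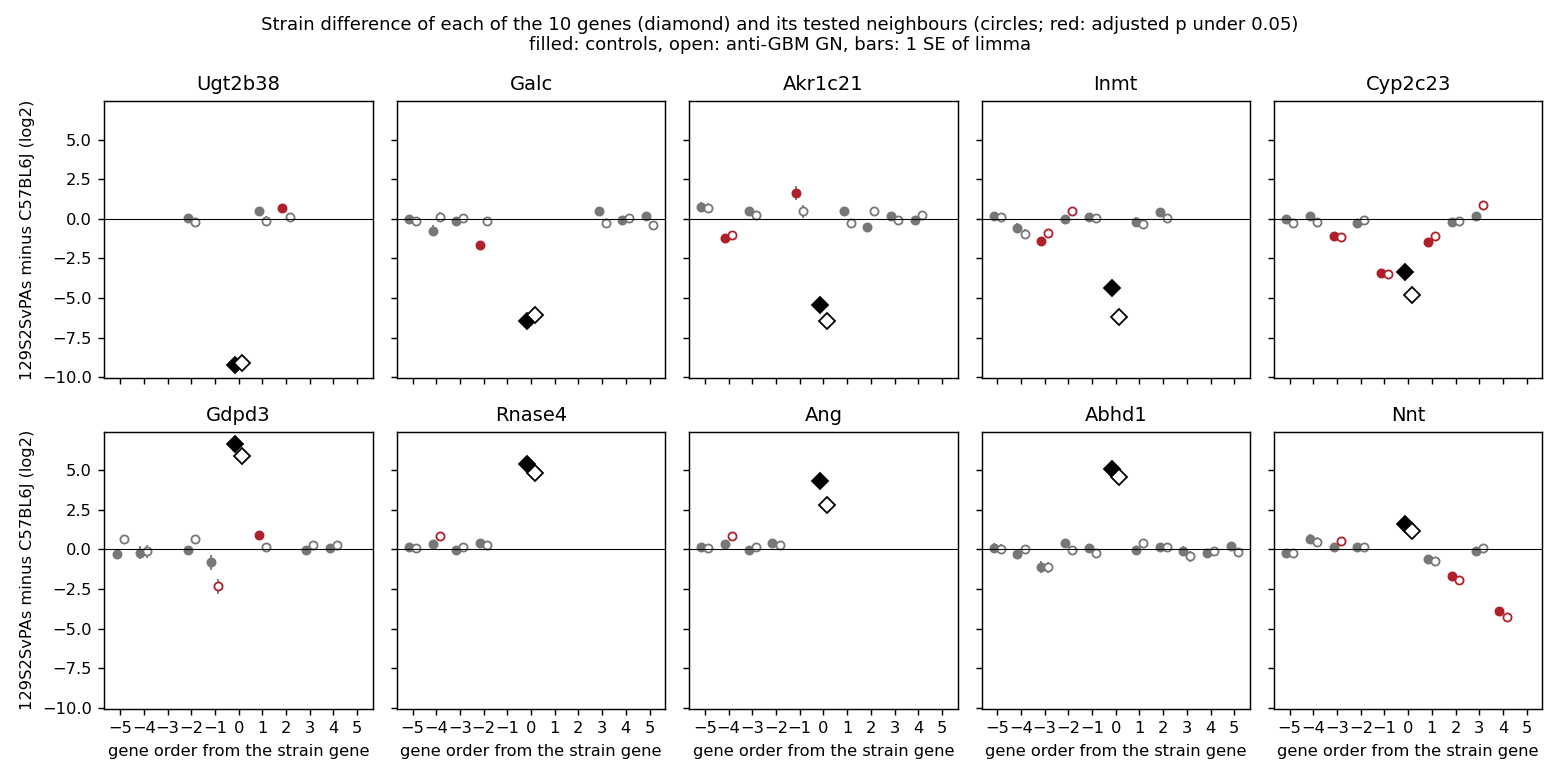
Log2 difference 129S2SvPAs minus C57BL6J (vertical axis) for each of the 10 genes (diamonds, at 0) and its tested neighbours (circles) by gene order on the chromosome, in controls (filled) and with anti-GBM GN (open), with bars of 1 SE from limma; red circles passed an adjusted p of 0.05. The neighbours lie near 0 except Cpn1 beside Cyp2c23, Tmem267 at position 4 after Nnt, and a few differences of smaller size.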

How the data were processed

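RNA of isolated glomeruli from 12 mice was measured on 12 arrays. The authors deposited 1 log2 signal per probe set and array. MAS5 and GCRMA are named in the submitters' processing notes, which do not say from which of them the signals came, and no genome build is given in the sources used here. Values ran from 1.12 to 15.02. The platform annotation gave 1 symbol for 34957 probe sets, several for 920 and none for 9160.

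Tests used limma 3.58.1 (R 4.3.3), with 1 mean per group over all 12 arrays, contrasts and eBayes, and Benjamini-Hochberg adjustment over the 23394 probe sets above 3.03 on at least 3 arrays. Counts over all genes used the 11921 genes among these, and for each gene of a list the probe set of highest mean was used. The threshold for a call was an adjusted p of 0.05. The fit was tested on simulated data. Figures were drawn with Python 3.11.15.

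The genes, the lists and the tests were chosen with earlier results of these data known. Named were all 16 probe sets, up to 4 called genes of each list and up to 12 called neighbours by lowest p in controls, and the 5 widest other gaps in each direction among probe sets with 1 symbol. Ugt2b34, Ugt2b37, Tpmt, Gamt and Coro1a were chosen after their values were seen. The replicates are separate mice, per the series' design text. Deviations of same-numbered samples correlated weakly in C57BL6J and in controls (r of 0.182 to 0.307). In the comparisons that hold 129S2SvPAs anti-GBM GN r was -0.349 to 0.204. This is a finding of the data, and the labels do not say that the samples were paired. Other settings were quantile normalization, no filter, a filter at 6.06, 1 probe set per gene, a replicate block, a proximal tubule covariate, array weights, only the groups compared, and leaving out each array.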

Additional observations from a re-analysis of the deposited data

Results flagged for a closer look

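The test of the difference of responses in limma called 2 of the related genes, where 0.427% of all probe sets tested were called. The call of Sphk1 is no support, and that of Asah2 was lost in most other fits, as given below. For Asah2 (1450726_at) the 129S2SvPAs response minus the C57BL6J response was -1.01 on the log2 scale (adjusted p = 0.032). Its signal was 8.08, 8.14 and 8.14 in 129S2SvPAs controls and 7.17, 7.17 and 6.96 in 129S2SvPAs anti-GBM GN, while C57BL6J mice had 8.31, 8.16 and 8.47 in controls and 8.16, 8.35 and 8.41 with anti-GBM GN. For Sphk1 (1451596_a_at) the difference was 1.67 (adjusted p = 0.032). Its signal was 2.95, 2.95 and 3.07 in 129S2SvPAs controls and 4.29, 4.23 and 5.02 in 129S2SvPAs anti-GBM GN, and all C57BL6J arrays lay under the table's median of 3.03. Sphk1 passed the filter on low signals only through the group where it was high, so it had to differ and its p is no support. Each passed in 3 of the 12 fits that left out 1 array, with adjusted p from 0.026 to 0.0835 for Asah2 and from 0.00838 to 0.0914 for Sphk1. With the replicate block the adjusted p was 0.0821 and 0.0665, and with the tubule covariate it was 0.3 and 0.295.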

How the results depend on the processing

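No called change turned its direction under any alternative. Changes that were not called, and lay near 0, did: with the proximal tubule covariate Akr1c21 in C57BL6J went from -0.27 to 0.23 and Galc 1452907_at in 129S2SvPAs from 0.25 to -0.14. The count of 10 probe sets with the strains apart on all 12 arrays was 10 after quantile normalization and 10 to 12 without 1 array. The Inmt call in C57BL6J, the only one there, gave a count of 0 with no filter and with the proximal tubule covariate, and 0 to 1 without 1 array. Of all probe sets tested, 4.86% were called in C57BL6J in the main fit, 1.71% with no filter and 1.76% with the covariate. The 6 calls in 129S2SvPAs became 0 with that covariate, 3 with only the groups compared, and 5 to 7 without 1 array. The share of all probe sets called there was 16.0% in the main fit, 0.244% with the covariate and 7.96% with only the groups compared. The difference of responses gave 1 call with array weights (1.52% of all probe sets, against 0.427% in the main fit) and 0 to 1 without 1 array. Of related genes, the 13 calls in controls became 7 with no filter, 11 with the covariate, 23 with array weights and 7 to 16 without 1 array. The 13 with anti-GBM GN became 4 with the covariate. In controls 7.29% of all probe sets were called in the main fit, 2.68% with no filter, 6.33% with the covariate and 11.2% with array weights. The 12 calls among neighbours with anti-GBM GN became 6 with the covariate and 7 to 12 without 1 array. In controls the covariate left 11 calls among neighbours, as in the main fit. Of all probe sets, 6.79% were called between the strains with anti-GBM GN in the main fit and 2.36% with the covariate. With the replicate number as a block the counts were 1 in C57BL6J, 5 in 129S2SvPAs, 0 for the difference, 10 and 12 for related genes and 10 and 13 for neighbours (controls and anti-GBM GN), and Ang 1450717_at in 129S2SvPAs had an adjusted p of 0.0504, and with anti-GBM GN Rnh1 had 0.0518, Me3 0.0545 and Bhmt 0.0157. Of all probe sets the block called 4.96% in C57BL6J, 15.5% in 129S2SvPAs and 0.158% for the difference. Between the strains it called 7.57% in controls and 6.43% with anti-GBM GN. In comparisons that hold 129S2SvPAs anti-GBM GN the samples share only a number. Signals near the table's median limit what could be seen to fall.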
